A study of Rattus norvegicus with 6 samples.

Results

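The serotonin 2 receptors, encoded by Htr2a, Htr2b and Htr2c, were examined in the rat medial prefrontal cortex (mPFC) after a single dose of lysergic acid diethylamide (LSD). The 3 genes were taken by name, as the receptor family through which LSD mainly acts, and every probe set annotated to 1 of them and to no other gene was kept. This gave 3 of 4736 genes and 5 of the 8740 probe sets tested, with 2 for Htr2a, 1 for Htr2b and 2 for Htr2c. The LSD group consisted of male Sprague-Dawley rats decapitated 90 min after an intraperitoneal injection of LSD at 1.0 mg/kg. The saline group consisted of rats of the same sex and strain that received saline at the same time. Each group was read on 3 Affymetrix rat genome arrays, which carry several short oligonucleotides per probe set. Per the labels, tissue of 4 rats was pooled for each treatment before RNA extraction. The study's text speaks instead of independent pools of a pair of rats. The p-values and intervals below therefore reflect only how far arrays of a group differ, a spread that may be technical. One line of the sample descriptions also names the opposite treatment to that in the title and the treatment label of the same sample. Titles and treatment labels were followed here, and every sign below would turn under the other reading.

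The serotonin 2 receptors are membrane receptors that couple to G proteins of the Gq class. Through phospholipase C they release calcium from internal stores and activate protein kinase C. In the cortex the 2A receptor is found mostly on pyramidal neurons and on some interneurons, and it mediates the hallucinogenic action of LSD. The 2C receptor is densest in the choroid plexus, the epithelium that makes cerebrospinal fluid, and is also found in many neurons, where its transcript undergoes adenosine-to-inosine editing. The 2B receptor is best known from heart valves, gut and blood vessels and is scarce in the brain.

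None of the 5 probe sets passed the test between LSD and saline. The 5 estimates were all below 0, from -0.20 to -0.07 log2 units. Among all 8740 probe sets 48.6% had an estimate below 0, and the members share the same 6 arrays. The test was limma over all 8740 probe sets, adjusted by the Benjamini-Hochberg method and called at 0.05, and the adjusted p of the members lay between 0.981 and 0.992. In that fit 6 probe sets passed, which is 0.0686% of the table. An unadjusted p below 0.05 was found for 3.92% of all probe sets and for 0 of the 5 members, whose unadjusted p ran from 0.0987 to 0.787.

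The signal of all 5 probe sets was dim. Values are log2 intensities after robust multi-array averaging (RMA), a procedure that corrects background and brings the arrays to a common distribution. The mean of each member over the 6 arrays lay below the median of the table, 5.43 log2 units. The brightest, M21410_s_at of Htr2c, was brighter than 2549 of the 8740 probe sets, and the dimmest, U35315_at of the same gene, was brighter than 271. For orientation, the 4 control probe sets for yeast genes, to which rat RNA should give no specific signal, read between 2.75 and 3.46 on these arrays. All 6 values of U35315_at lay between 2.69 and 2.94, near the lower end of that range, with LSD 1 below it. Of M64867_at of Htr2a, the values on LSD 3 (3.42), Saline 1 (3.36) and Saline 2 (3.44) lay within the upper part of the range. Probe sets differ in how strongly they bind, so this neither sets a limit of detection nor orders the receptors by abundance, and no detection calls were used. RMA also compresses fold changes of dim probe sets, so the fold changes and intervals given here hold on the RMA scale and may understate changes in transcript level.

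**Figure D1:**
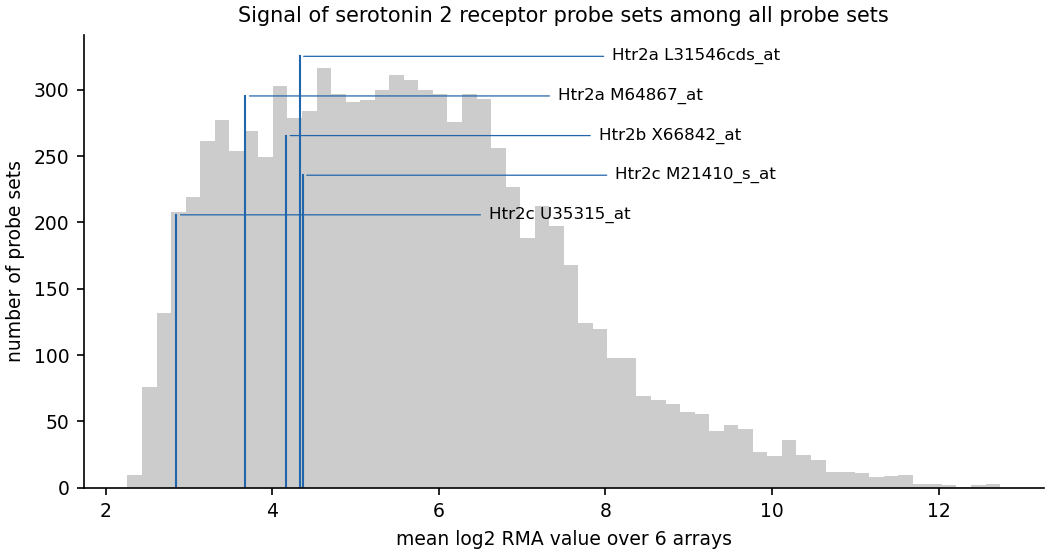
Number of probe sets (vertical axis) by mean log2 RMA value over the 6 arrays (horizontal axis), for all 8740 probe sets, with blue lines at the 5 serotonin 2 receptor probe sets. All 5 lie below the median of 5.43 log2 units.

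Htr2a was read by L31546cds_at and M64867_at. On L31546cds_at the LSD arrays read 4.05, 4.28 and 4.37 log2 units, against 4.46, 4.43 and 4.38 on the saline arrays. All 3 LSD arrays lay below all saline arrays, but the highest LSD value and the lowest saline value were only 0.0057 log2 units apart. Over the table, 3.79% of probe sets separated in this direction. The LSD arrays averaged 4.23 ± 0.17 and the saline arrays 4.42 ± 0.045 log2 units (SD, n = 3 each), a difference of -0.19 ± 0.10 (SE) with an adjusted p of 0.981. This corresponds to 0.876 of the saline level, and the 95% interval ran from 0.744 to 1.03. LSD 1 was the lowest of the 6 arrays, and without it the difference was -0.10.

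The second Htr2a probe set did not separate the groups. On M64867_at the LSD arrays read 3.91, 3.60 and 3.42 log2 units, against 3.36, 3.44 and 4.34 on the saline arrays. Saline 3 was the highest of the 6 arrays and Saline 1 the lowest, so that the saline arrays enclosed the LSD arrays. On LSD 3, Saline 1 and Saline 2 this probe set read within the range of the yeast controls, so its values need not reflect the transcript. The means were 3.64 ± 0.25 in LSD and 3.71 ± 0.54 log2 units in saline arrays (SD, n = 3 each), with a difference of -0.07 ± 0.25 (SE, adjusted p = 0.992). Its spread within groups, 0.42 log2 units, exceeded that of 97.9% of all probe sets, for which the median was 0.13. Without Saline 3 the difference was 0.24, and without LSD 3 it was 0.040, both opposite in sign to the value over all arrays. The within-array difference between L31546cds_at and M64867_at averaged 0.59 ± 0.41 in LSD and 0.71 ± 0.59 log2 units in saline arrays (SD, n = 3 each; exact permutation p = 0.7, two-sided), so the change of one relative to the other did not exceed the spread between arrays. Averaged over both probe sets, Htr2a differed by -0.13 ± 0.12 log2 units (SE, adjusted p = 0.969 over 4736 genes).

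**Figure D2:**
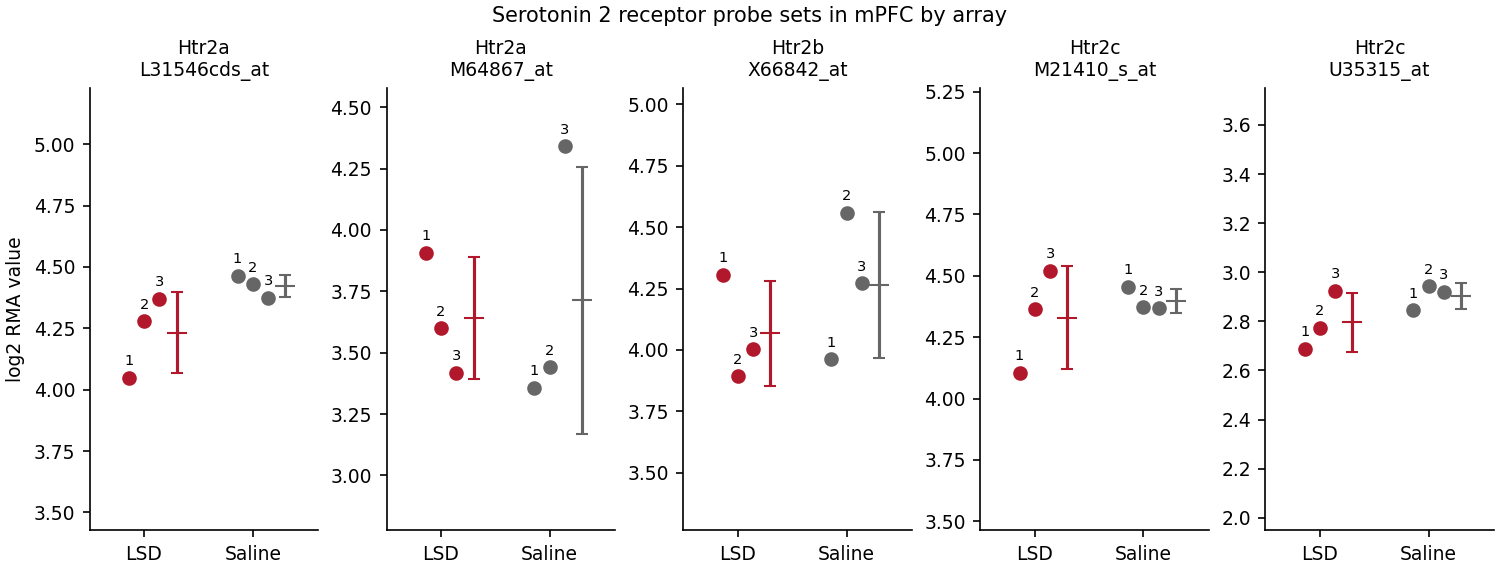
Log2 RMA values (vertical axes, each spanning the same number of log2 units) of the 5 serotonin 2 receptor probe sets, LSD in red and saline in grey, with 1 point per array numbered by replicate and bars for mean and SD (n = 3). The groups do not overlap for L31546cds_at of Htr2a, where LSD 3 at 4.37 and Saline 3 at 4.38 nearly meet, and they overlap for the other 4 probe sets.

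Pyramidal neurons, where much of the cortical 2A receptor lies, were read through 7 measured markers of a list of 16. Of these 5 were higher and 2 lower after LSD, 0 passed in limma (0 at an unadjusted p below 0.05), and their mean level ran from 6.69 to 6.78 log2 units on LSD arrays and from 6.74 to 6.75 on saline arrays. The label could be checked only in part, and the markers differed in direction. Nrgn, which encodes the postsynaptic protein neurogranin of forebrain neurons, averaged 11.05 ± 0.064 in LSD and 10.99 ± 0.014 log2 units in saline arrays (SD, n = 3 each). Slc17a7, the vesicular glutamate transporter of cortical neurons, averaged 4.67 ± 0.16 in LSD and 4.83 ± 0.061 log2 units in saline arrays, below the median of the table. Camk2a was the other lower marker, with a difference of -0.19 log2 units. Nrn1 (0.14) was the only 1 of the 7 whose groups separated, with LSD higher. The remaining higher markers, Rorb (0.021), Neurod2 (0.015) and Grm2 (0.0052), hardly differed. In such dissected tissue, fewer cells of a type and less RNA per cell cannot be told apart.

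Htr2c was read by M21410_s_at and U35315_at. A probe set ending in _s_at can match more than 1 transcript, so the signal of M21410_s_at cannot be assigned to Htr2c with certainty. Its values were 4.11, 4.36 and 4.52 log2 units on the LSD arrays and 4.46, 4.37 and 4.37 on the saline arrays. LSD 1 was the lowest and LSD 3 the highest of the 6, so that the LSD arrays enclosed the saline arrays. The means were 4.33 ± 0.21 in LSD and 4.40 ± 0.049 log2 units in saline arrays (SD, n = 3 each), a difference of -0.07 ± 0.12 (SE, adjusted p = 0.984). Without LSD 1 the difference was 0.044, of the opposite sign.

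On U35315_at the LSD arrays read 2.69, 2.77 and 2.93 log2 units, against 2.85, 2.94 and 2.92 on the saline arrays. LSD 1 and LSD 2 lay below all saline arrays and LSD 3 lay among them. The means were 2.80 ± 0.12 in LSD and 2.90 ± 0.051 log2 units in saline arrays (SD, n = 3 each), a difference of -0.11 ± 0.092 (SE, adjusted p = 0.981). With 1 array left out the difference lay between -0.17 (without LSD 3) and -0.054 (without LSD 1). It was the least variable of the 5 within groups, with a spread below that of most probe sets of the table (0.092 against a median of 0.13 log2 units), and the dimmest. The within-array difference between the 2 Htr2c probe sets averaged 1.534 ± 0.10 in LSD and 1.496 ± 0.099 log2 units in saline arrays (SD, n = 3 each; exact permutation p = 1, two-sided). For M21410_s_at the interval allowed levels from 0.793 to 1.15 of saline, and for U35315_at from 0.802 to 1.08, so a 1.5-fold change on the RMA scale lay outside both.

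The choroid plexus epithelium, the site of densest 2C receptor, was read through its own markers. Of 12 listed markers 8 were measured, of which 7 were lower and 1 higher after LSD, and 0 passed in limma over the table (2 at an unadjusted p below 0.05). Their mean level ran from 5.66 to 5.78 log2 units on LSD arrays and from 5.83 to 5.89 on saline arrays, without overlap, although Ttr was the only 1 of the 8 measured markers whose groups separated. Ttr, which encodes the thyroid hormone carrier transthyretin, read 9.997, 9.922 and 9.875 log2 units on LSD arrays and 10.52, 10.42 and 10.33 on saline arrays (adjusted p = 0.238). The 2 markers with an unadjusted p below 0.05 in limma were Ttr (-0.49) and Enpp2 (-0.41 log2 units). The other lower markers differed only by -0.080 (Kl) to -0.040 (Kcnj13), and Aqp1 by 0.15. Over the table, 3.92% of probe sets had such a p. Striatal neurons, which also carry 2C receptors, were read through 11 of 16 listed markers. Of these 9 were lower and 2 higher, and 0 passed in limma (3 at an unadjusted p below 0.05). Their mean level ran from 6.50 to 6.60 log2 units on LSD arrays and from 6.68 to 6.71 on saline arrays, also without overlap. The groups separated with LSD lower for 5 of the 11 markers and with LSD higher for 0. Over the table, 3.79% of probe sets separated with LSD lower. The part of either tissue in the Htr2c values was not tested.

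Htr2b was read by X66842_at alone. The LSD arrays read 4.307, 3.893 and 4.003 log2 units, against 3.96, 4.56 and 4.27 on the saline arrays. Saline 1 lay among the LSD arrays and LSD 1 lay among the saline arrays. The means were 4.07 ± 0.21 in LSD and 4.26 ± 0.30 log2 units in saline arrays (SD, n = 3 each), a difference of -0.20 ± 0.17 (SE, adjusted p = 0.981). The level was 0.873 of saline with a 95% interval from 0.668 to 1.14. The spread within groups, 0.26 log2 units, was larger than in 90.5% of all probe sets. Leaving out 1 array moved the difference between -0.35 (without Saline 1) and -0.049 (without Saline 2), all of the same sign. Vessel walls and meninges, in which 2B receptors occur outside the brain's neurons, were read through 13 of 14 listed markers, with 6 higher, 7 lower and 0 past the threshold in limma (1 at an unadjusted p below 0.05). Their mean level overlapped between the groups, from 5.96 to 6.01 log2 units on LSD arrays and from 5.93 to 6.05 on saline arrays.

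**Figure D3:**
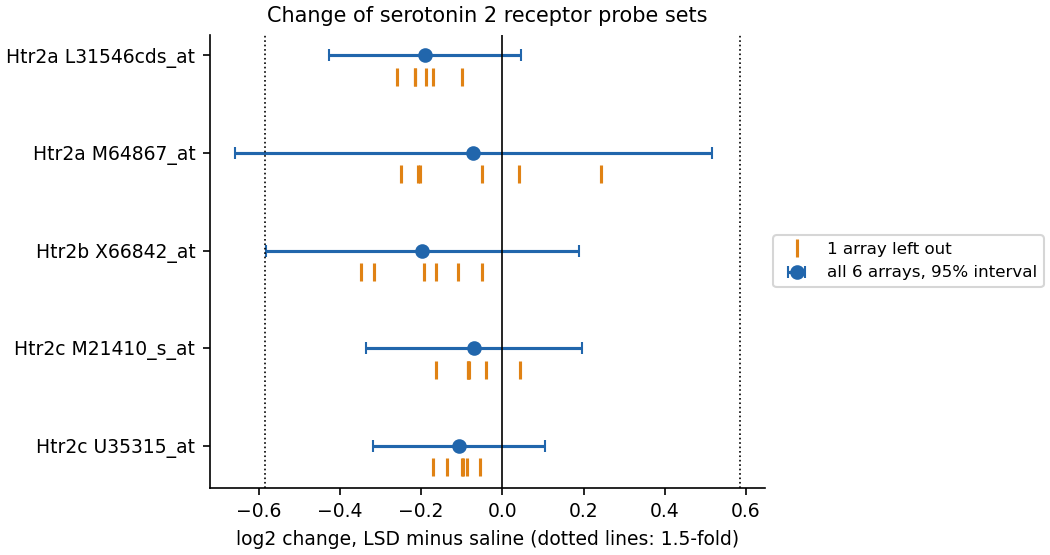
Log2 change, LSD minus saline (horizontal axis), of the 5 serotonin 2 receptor probe sets, where blue points give the estimate, bars the limma 95% interval (n = 3 arrays per group), orange marks the values with 1 array left out, and dotted lines a 1.5-fold change in either direction. Every interval includes 0, and that of M64867_at extends below a 1.5-fold fall.

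The precision of the 5 probe sets differed. A 1.5-fold change in either direction lay outside the interval of L31546cds_at (lower limit 0.744 of saline) and of both Htr2c probe sets. U35315_at of Htr2c read near the level of the yeast controls, so its narrow interval need not reflect the transcript. For X66842_at of Htr2b the interval reached almost to a 1.5-fold fall, with a limit of 0.668, and for M64867_at of Htr2a it ran from 0.634 to 1.43 and so included a 1.5-fold fall. A p above the threshold does not show that the receptors were at the same level in both groups, and smaller changes than these limits could not be resolved with 3 arrays per group.

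Whether the receptor genes differed in their change was tested within arrays, through the difference between the brightest probe sets of each pair of genes, with 3 pairs compared. L31546cds_at of Htr2a minus M21410_s_at of Htr2c was -0.056, -0.085 and -0.15 log2 units on the LSD arrays and 0.0094, 0.057 and 0.0083 on the saline arrays. The groups did not overlap, and the spread in each group was smaller than that of either probe set alone, both of which were lowest on LSD 1. The means were -0.098 ± 0.049 in LSD and 0.025 ± 0.028 log2 units in saline arrays (SD, n = 3 each), a difference of -0.12. The two-sided exact permutation p was 0.1, the smallest that 3 against 3 arrays allow, and 0.3 after adjustment over the 3 pairs, so the comparison could not pass whatever its size. With 1 array left out the difference stayed between -0.14 and -0.096. Htr2a and Htr2b differed in their change by 0.0056 log2 units (exact permutation p = 1, adjusted p = 1), and Htr2b and Htr2c by -0.13 (exact permutation p = 0.8, adjusted p = 1). In both of these pairs the arrays of the groups overlapped widely.

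**Figure D4:**
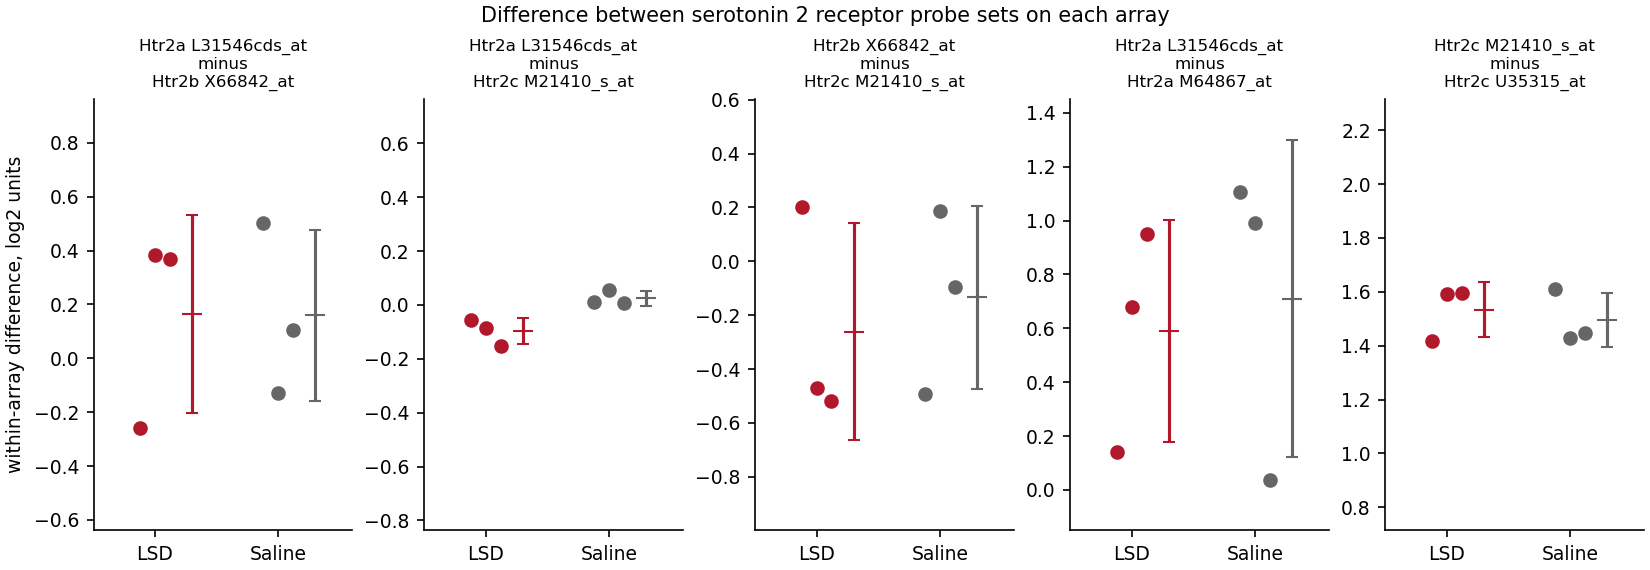
Difference in log2 RMA value between 2 serotonin 2 receptor probe sets on the same array (vertical axes, each spanning the same number of log2 units), for 3 pairs of genes and 2 pairs of probe sets of the same gene, with LSD in red, saline in grey and bars for mean and SD (n = 3). The groups do not overlap for L31546cds_at minus M21410_s_at, whose means are -0.098 in LSD and 0.025 in saline arrays, and they overlap in the other 4.

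Across the 6 arrays the Htr2a probe set L31546cds_at varied with both Htr2c probe sets (Pearson r = 0.87 and 0.84, Spearman rho = 0.66 and 0.60). The 2 Htr2c probe sets had a Pearson r of 0.76 (Spearman rho 0.71), whereas the 2 Htr2a probe sets had one of -0.37 (rho -0.54). These values describe 6 arrays that share their scaling and, within a group, perhaps their RNA pool. LSD 1 was the lowest array for 3 of the 5 probe sets, namely L31546cds_at, M21410_s_at and U35315_at, and LSD 2 lay below the mean of the 6 arrays in all 5. Averaged over the 5 probe sets, the deviation from that mean was -0.065, -0.096 and -0.029 log2 units on the LSD arrays and -0.060, 0.072 and 0.18 on the saline arrays, so Saline 1 lay among the LSD arrays.

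The probe sets with the most similar course over the 6 arrays were sought by Pearson correlation among 7005 probe sets with 1 gene symbol. For Htr2a (L31546cds_at) they were those of Lhb, the beta subunit of luteinizing hormone, at r = 0.997, Csf1r, the receptor of a macrophage growth factor, at 0.994, and the transcription factor gene Wt1 at 0.988. For Htr2b (X66842_at) they were the homeobox gene Lhx5 (0.997), a probe set of Prkcb, a protein kinase C isoform (0.990), and Ptprz1, a receptor tyrosine phosphatase (0.987). For Htr2c (M21410_s_at) they were Crcp (0.998), the non-coding RNA host gene Gas5 (0.992) and the cyclin gene Ccnb1 (0.990). With 6 arrays such values are common. A correlation above 0.95 was found for 38 probe sets with Htr2a, 24 with Htr2b and 55 with Htr2c.

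Downstream of the receptors, genes of the Gq pathway did not pass in either direction. Of 25 listed genes 19 were measured, each by its brightest probe set, with 8 higher and 11 lower after LSD, a median log2 change of -0.034 (0.0045 over all probe sets) and a range from -0.23 to 0.20. No member reached an unadjusted p of 0.05. The lowest p belonged to Plcb2, a phospholipase C isoform, which read 5.21, 5.46 and 5.49 log2 units on LSD arrays and 5.73, 5.50 and 5.60 on saline arrays, a difference of -0.23 ± 0.11 (SE, adjusted p = 0.981). All 3 LSD arrays lay below all saline arrays, which held for 2 of the 19 measured genes, while 0 separated with LSD higher. Over the table, 3.79% of probe sets separated with LSD lower. Prkce, the epsilon isoform of protein kinase C, read 7.66, 7.93 and 7.76 on LSD arrays and 7.69, 7.62 and 7.45 on saline arrays, with overlap and a difference of 0.20 ± 0.11 (SE, adjusted p = 0.981). As a detail chosen after its values were seen, the other 3 Prkce probe sets also had positive estimates, 0.19 for M15523_s_at, 0.29 for M18331_at and 0.28 for M18331_g_at, with adjusted p of 0.981 for each.

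Proteins that switch off, traffic, edit or scaffold the receptors likewise did not pass. Of 24 listed genes 16 were measured, with 11 higher and 5 lower, a median log2 change of 0.066 and a range from -0.15 to 0.39. Dlg1, which encodes the PDZ scaffold SAP97, was the 1 member with an unadjusted p below 0.05, and its adjusted p was 0.772 in limma. It read 5.38, 5.14 and 5.37 log2 units on LSD arrays and 4.82, 4.94 and 4.94 on saline arrays, so all LSD arrays lay above all saline arrays. The difference was 0.39 ± 0.098 log2 units (SE). Such a separation with LSD higher was found for 575 of all probe sets tested, and with LSD lower for 331. Estimates of 0.14 and 0.11 were obtained from the other 2 probe sets of Dlg1. The mean level of the list ran from 6.21 to 6.27 log2 units on LSD arrays and from 6.07 to 6.20 on saline arrays.

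**Figure D5:**
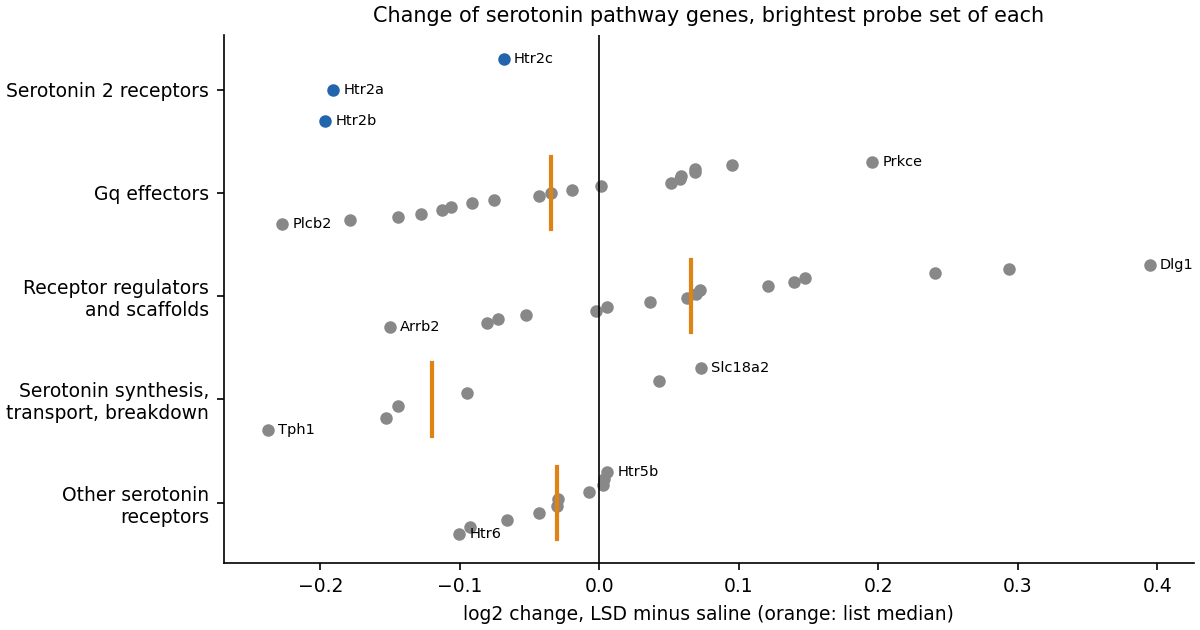
Log2 change, LSD minus saline (horizontal axis), of the 3 serotonin 2 receptor genes (blue) and of 4 gene lists around them (grey), 1 point per gene by its brightest probe set, with the list median in orange and the lowest and highest member of each list named. The receptor genes lie between -0.20 and -0.07, within the range from -0.24 to 0.39 of the lists.

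Serotonin supply and the other serotonin receptors likewise gave 0 passing genes in limma, and 0 at an unadjusted p below 0.05. Of 7 genes of serotonin synthesis, transport and breakdown 6 were measured, with 2 higher and 4 lower and a median of -0.12 log2 units. The listed gene not measured was Tph2, the other tryptophan hydroxylase beside Tph1. Ddc, the decarboxylase that completes serotonin and dopamine synthesis, read 5.73, 5.60 and 5.72 on LSD arrays and 5.92, 5.80 and 5.78 on saline arrays, a difference of -0.14 ± 0.087 log2 units (SE, adjusted p = 0.981), and the groups did not overlap. It was the only 1 of the 6 to separate, and 3.79% of all probe sets separated with LSD lower. Tph1, a tryptophan hydroxylase found mainly outside the brain, read 2.84, 3.11 and 3.14 on LSD arrays and 3.71, 2.97 and 3.13 on saline arrays, and its difference of -0.24 ± 0.19 (SE, adjusted p = 0.981) came with overlap. On all arrays but Saline 1 it read within the range of the yeast controls, 2.75 to 3.46. Of 11 listed receptors outside the 2 class, 10 were measured, with 3 higher and 7 lower, a median of -0.030 and a range from -0.10 to 0.0055 log2 units. Htr1a, the main inhibitory serotonin receptor of the cortex, differed by -0.093 ± 0.082 (SE, adjusted p = 0.981) and Htr6 by -0.10 ± 0.13 (SE, adjusted p = 0.981). The groups overlapped for all 10. By their brightest probe sets, the estimates of Htr2a (-0.19) and Htr2b (-0.20) lay below this range and that of Htr2c (-0.07) within it, as did the second Htr2a probe set, M64867_at (-0.07). These positions were not tested.

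Rapid-response genes, which receptor activation can induce within the 90 min studied, were counted as a readout of receptor signalling. Of 21 listed genes 17 were measured, with 11 higher, 6 lower and 0 past the threshold, and a median log2 change of 0.055. Those with an unadjusted p below 0.05 were Arc, whose product shapes excitatory synapses after activity (0.23 ± 0.085, SE, adjusted p = 0.981), and the transcription factor gene Egr2 (-0.29 ± 0.13, SE, adjusted p = 0.981). The groups separated with LSD higher for 4 of the 17 genes, Arc among them, and with LSD lower for 0. They overlapped for Egr2, which was dim, averaging 3.31 in LSD and 3.60 log2 units in saline arrays where the yeast controls read up to 3.46. Arc averaged 7.77 in LSD and 7.54 log2 units in saline arrays. Among all probe sets tested, 575 separated with LSD higher and 331 with LSD lower.

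Other markers and array properties were compared for the whole table. Inhibitory neuron markers had 7 of 12 lower, microglia and macrophage markers 5 of 11, astrocyte markers 5 of 8, oligodendrocyte markers 3 of 6 and endothelial markers 3 of 7, with 0 passing in any list in limma. At an unadjusted p below 0.05 in limma there were 4 of the 8 astrocyte markers, against 3.92% of all probe sets. They went in both directions, with Cst3 (-0.27), Slc1a3 (-0.25) and S100b (-0.24 log2 units) lower and Aqp4 (0.41) higher after LSD. The other lists named here had 0 such markers each. The mean level of each of these lists overlapped between the groups. The number of probe sets over 1 log2 unit away from the average of the remaining 5 arrays was 21, 2 and 11 on the LSD arrays and 78, 6 and 12 on the saline arrays, so Saline 1 stood apart. The 3' minus 5' signal of beta-actin, which grows with RNA degradation, ran from 0.640 to 0.712 log2 units on LSD arrays and from 0.749 to 0.835 on saline arrays, without overlap. The same measure for GAPDH overlapped, from 0.400 to 0.581 log2 units on LSD arrays and from 0.474 to 0.555 on saline arrays. The part of RNA integrity in the receptor values was not tested. Without Saline 1 the 5 receptor probe sets kept a negative sign, with log2 changes from -0.35 (X66842_at) to -0.04 (M21410_s_at).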

How the data were processed

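RNA of the mPFC was hybridised to 6 arrays. The deposited values are on a log2 scale and come from RMA as run by the authors in the affy package (background correction, quantile normalization, summary per probe set), with no version stated. Quantile normalization hides a change shared by most transcripts. Arrays have no read depth, and their number limits the precision.

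After 59 control probe sets were left out, 8740 of 8799 were tested. Platform annotation gave 1 symbol for 7006, several for 308 and none for 1426, and 6985 matched RefSeq genes of the GRCr8 assembly by gene ID, which changed 0 symbols. No genome build is named for the array, so no coordinates are given, and sequences of the probes were not used here. Where 1 value per gene was needed, the brightest probe set stood for it.

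The LSD and saline arrays were fitted over all probe sets in limma (version 3.58.1, under R 4.3.3), with lmFit, eBayes, two-sided tests and Benjamini-Hochberg adjustment. The script was tested on simulated data. Differences within arrays were tested by exact permutation over 20 assignments. Named in the text were the 5 member probe sets, the 3 probe sets most correlated with each gene, and, of each pathway list, members with an unadjusted p below 0.05 or else the 2 of lowest p. Members and lists were chosen with earlier results of these data known. The alternatives were other scalings, array weights, a replicate block, a robust prior with intensity trend, removal of dim probe sets, an exact rank test, control probe sets kept, other ways to combine probe sets, and leaving out each array.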

Additional observations from a re-analysis of the deposited data

How the results depend on the processing

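The 5 receptor probe sets were refitted under 14 settings, giving 70 values, of which 67 kept their sign and none passed the threshold. The lowest adjusted p was 0.173, for Htr2b with array weights (log2 change -0.38). The filter on dim probe sets removed all 5 members and so gave no value for them. Leaving out 1 array moved M64867_at of Htr2a between -0.25 and 0.24 and M21410_s_at of Htr2c between -0.16 and 0.044. It moved the difference in change between Htr2a and Htr2b from -0.14 to 0.22, between Htr2b and Htr2c from -0.36 to 0.032, and between the Htr2a probe sets from -0.46 to 0.10. The cause of these turns of sign was not tested.

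The number of probe sets past the threshold, 6 over the whole table, was 16 among those above the median level, 20 with an intensity trend and robust prior, 42 with array weights and 1 with 1 probe set per symbol. It was 0 with an exact rank test, whose smallest possible p is 0.1, and between 0 and 3 with 1 array left out (0 without any one array but Saline 1, with 257 to 366 at an unadjusted p below 0.05, and 3 without Saline 1, with 806). With the replicate number as a block limma called 0, with 262 probe sets at an unadjusted p below 0.05, and the 5 receptor probe sets kept an adjusted p of 0.997. The deviations of same-numbered arrays from their group means had correlations of -0.018, -0.23 and 0.17. With 3 arrays per group these values cannot decide whether the numbers pair the arrays, and the labels do not say so. The calls split 1 higher to 5 lower over all probe sets, 8 to 8 above the median level, 21 to 21 with array weights and 7 to 13 with the trend. The dimness of the receptor probe sets limits what these arrays can show for them.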
